A study of Mus musculus with 18 samples.

Results

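The 6 STAT genes Stat2, Stat3, Stat4, Stat5a, Stat5b and Stat6 were examined for chromatin accessibility by ATAC-seq in mouse bone marrow-derived macrophages (BMDMs). A peak of the union table was taken where it overlapped the body of a member gene extended by 25 kb on both sides. Gene bodies came from GENCODE M1 on build mm9. No measured value entered that window rule, but the members were chosen with earlier results of these data known. The rule gave 141 peaks of 194284, and all 141 passed the filter on low counts. The windows held 21 peaks at Stat2, 44 at Stat3, 20 at Stat4, 29 at Stat5a, 37 at Stat5b and 26 at Stat6. Stat5b, Stat5a and Stat3 lie side by side on chromosome 11, so 29 peaks were in more than 1 window and 7 were in 3.

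All cells came from 3 Il10-/- mice on the C57BL/6J background, 12-week-old males by the study's methods, and therefore made no IL-10 of their own. Marrow was grown for 6 days in L929 conditioned medium. There were 3 libraries in each of 6 conditions, 18 in all: Unstimulated (untreated, with PBS), JQ1 (500 nM (+)-JQ1), IL10 (10 ng/mL IL-10), LPS (50 ng/mL, titled untreated), LPS_JQ1 and LPS_IL10. The study's methods name a vehicle as the control pretreatment before LPS, and untreated cells without LPS as a further control. Sample titles name no vehicle, so a vehicle effect cannot be told apart in the comparisons with Unstimulated. Pretreatment lasted 12 hours and LPS or PBS was then added for another 4 hours, so JQ1 and IL-10 were present for 16 hours. The groups ask how the bacterial product LPS, inhibition of BET proteins by JQ1, and exogenous IL-10 alter accessible chromatin. No group had intact Il10, and (+)-JQ1 was used at 1 dose with no inactive enantiomer among the samples. Total counts in peaks ran from 12020526 to 25908198 per library, and replicates correlated with r of 0.923 to 0.960 within groups. All 8 macrophage marker genes had a promoter peak, with medians of 126 to 663 normalized counts. A promoter peak was also found for 1 of 4 T cell markers (Lck, 329, while Cd3e, Cd3g and Cd4 had none), the B cell markers Cd79a, Ms4a1 and Pax5 (17.6 to 144), 3 of 3 epithelial or stromal markers (11.5 to 273) and 2 of 3 neutrophil markers (39.9 to 262, none at Ly6g). Their part in the results was not tested.

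STAT proteins wait in the cytoplasm until a cytokine receptor is engaged. JAK kinases on the receptor then phosphorylate them, and pairs of STAT proteins move to the nucleus and bind DNA. STAT2 acts with IRF9 downstream of type I interferon, STAT3 carries the IL-10 and IL-6 signal, STAT4 that of IL-12, STAT5A and STAT5B that of GM-CSF and other growth factors, and STAT6 that of IL-4 and IL-13. (+)-JQ1 displaces BET proteins from acetylated histones.

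The sequences below come from the mm9 genome, plus strand, and each lies in a peak described in the results that follow, at a gene start or at a site that differed between conditions. Capitals mark matches to the motifs searched on both strands: a STAT dimer site (TTCNNNGAA), an interferon response element (GAAANNGAAA), the PU.1 core (GAGGAA), an AP-1 TRE (TGACTCA or TGAGTCA) and the kappaB motif. Each motif was searched on its own, so 1 stretch could count for more than 1 motif. The first lies between Apof and Stat2 (chr10:127707238-127707437), the second in the Stat2 gene (chr10:127715213-127715332), the next pair are the middle 300 bp of 2 intergenic peaks upstream of Stat3 (chr11:100813487-100813786 and chr11:100808502-100808801), the fifth is in a Stat4 intron (chr1:52079178-52079477) and the sixth in Stat5a (chr11:100721366-100721515).
Stat2 upstream: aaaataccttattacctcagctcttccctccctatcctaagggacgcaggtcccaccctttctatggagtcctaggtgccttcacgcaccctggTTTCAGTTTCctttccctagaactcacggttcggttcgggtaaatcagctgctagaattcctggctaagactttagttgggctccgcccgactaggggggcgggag
Stat2 gene body: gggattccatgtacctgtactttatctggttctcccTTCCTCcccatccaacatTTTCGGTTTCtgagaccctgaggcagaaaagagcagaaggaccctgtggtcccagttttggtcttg
Stat3 upstream, far: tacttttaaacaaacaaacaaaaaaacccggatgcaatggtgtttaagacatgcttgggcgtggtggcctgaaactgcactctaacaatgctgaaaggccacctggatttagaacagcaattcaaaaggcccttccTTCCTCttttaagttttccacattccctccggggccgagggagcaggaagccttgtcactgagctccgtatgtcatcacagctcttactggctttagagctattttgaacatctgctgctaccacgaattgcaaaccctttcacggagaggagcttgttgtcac
Stat3 upstream, near: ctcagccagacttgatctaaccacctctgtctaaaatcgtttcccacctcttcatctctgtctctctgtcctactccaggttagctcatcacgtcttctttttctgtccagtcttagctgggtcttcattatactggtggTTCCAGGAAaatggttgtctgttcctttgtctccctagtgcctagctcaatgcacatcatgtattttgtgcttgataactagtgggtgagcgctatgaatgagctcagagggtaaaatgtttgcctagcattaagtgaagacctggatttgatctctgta
Stat4 intron: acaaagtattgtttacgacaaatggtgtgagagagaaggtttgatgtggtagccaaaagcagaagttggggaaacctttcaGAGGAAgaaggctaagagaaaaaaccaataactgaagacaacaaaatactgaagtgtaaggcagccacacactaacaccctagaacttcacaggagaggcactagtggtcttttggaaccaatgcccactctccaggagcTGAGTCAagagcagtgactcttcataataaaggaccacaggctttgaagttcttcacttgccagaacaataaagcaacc
Stat5a gene: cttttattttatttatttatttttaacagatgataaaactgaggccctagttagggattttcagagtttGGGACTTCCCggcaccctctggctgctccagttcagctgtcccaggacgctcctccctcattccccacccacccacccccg

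A match is a description of letters and not a binding site. In the middle 300 bp, 6.38% of the 141 peaks held a STAT dimer motif against 8.74% of all 194284 peaks, 2.13% against 4.40% an interferon response element, 9.22% against 8.56% an AP-1 TRE, 6.38% against 5.98% a kappaB motif and 31.9% against 31.7% the PU.1 core. The STAT genes were thus not marked by a surplus of these letters at the centres of their peaks. Over whole peaks the shares were 36.9% against 31.1% for the STAT dimer and 31.2% against 21.0% for kappaB, but the peaks at the STAT genes were also wider (median 1133 bp against 956 bp, with 16.3% against 7.05% at 3 kb or more).

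Within the STAT windows, LPS opened many peaks and closed few. A peak was called a differentially accessible region (DAR) when edgeR's quasi-likelihood test over 194230 peaks gave an adjusted p below 0.05 and the log2 fold-change exceeded 0.5 in size. With LPS, 47 of the 141 peaks (33.3%) were higher and 2 (1.42%) lower, against 11.7% higher and 10.2% lower of all peaks tested. The median log2 fold-change was 0.34 at the STAT genes and -0.03 over all peaks. In 47 of the 49 DARs the LPS and unstimulated libraries did not overlap. The DARs were called from these same libraries, so this describes them and gives no further support. The unstimulated libraries had TMM scaling factors of 1.04 to 1.24 and the other 15 of 0.896 to 1.05. Scaled to total counts instead, the split was 25 higher and 5 lower, and without replicate 2 of every group 29 were higher. Total-count scaling moved the median over all tested peaks, in log2 fold-change, by -0.23 in this comparison, by -0.28 for JQ1 and by -0.21 for IL-10 against unstimulated, and by 0.27 in both interactions. In these bulk libraries, fewer cells with an open site cannot be told apart from less opening per cell.

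With JQ1 added to LPS, 15 peaks (10.6%) were lower and 1 (0.709%) higher than with LPS alone, against 3.49% lower and 1.74% higher of all peaks. With IL-10 added to LPS, 5 peaks (3.55%) were lower and 4 (2.84%) higher, against 4.51% and 4.26% of all peaks, a share near the background. Set directly against each other, LPS_JQ1 was lower than LPS_IL10 at 16 peaks (11.3%) and higher at 2 (1.42%), against 4.68% and 3.43% of all peaks. Leaving out 1 replicate of every group gave 10 to 13 peaks lower in LPS_JQ1 than in LPS, but the direct contrast fell to 6 lower without replicate 2 and to 10 without replicate 3. For IL-10 under LPS the counts were then 1 higher and 0 lower without replicate 2, 6 and 3 without replicate 1, and 4 and 3 without replicate 3.

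Without LPS, JQ1 alone gave 21 higher (14.9%) and 2 lower (1.42%) peaks, against 7.85% and 3.15% of all peaks. IL-10 alone gave 14 higher peaks (9.93%) against 5.16%. No peak was called lower with IL-10 by edgeR or by DESeq2, where 3.50% of all peaks were, and 5 peaks were lower at an unadjusted p under 0.05. Both sets of rises lay partly at promoters. Of the 41 promoter-class peaks, 13 (31.7%) were higher with JQ1 against 22.9% of all promoter peaks, 7 (17.1%) with IL-10 against 8.72%, and 19 (46.3%) with LPS against 14.3%. These calls turned on the scaling: with total counts, JQ1 gave 6 higher and 15 lower peaks and IL-10 gave 3 and 3, and with loess offsets JQ1 gave 4 and 5 and IL-10 gave 4 and 1. They also turned on single replicates: IL-10 gave 8, 2 and 22 higher peaks without replicate 1, 2 or 3, and 6 without the unstimulated library of replicate 1 alone, and JQ1 gave 7 without replicate 2.

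**Figure D1:**
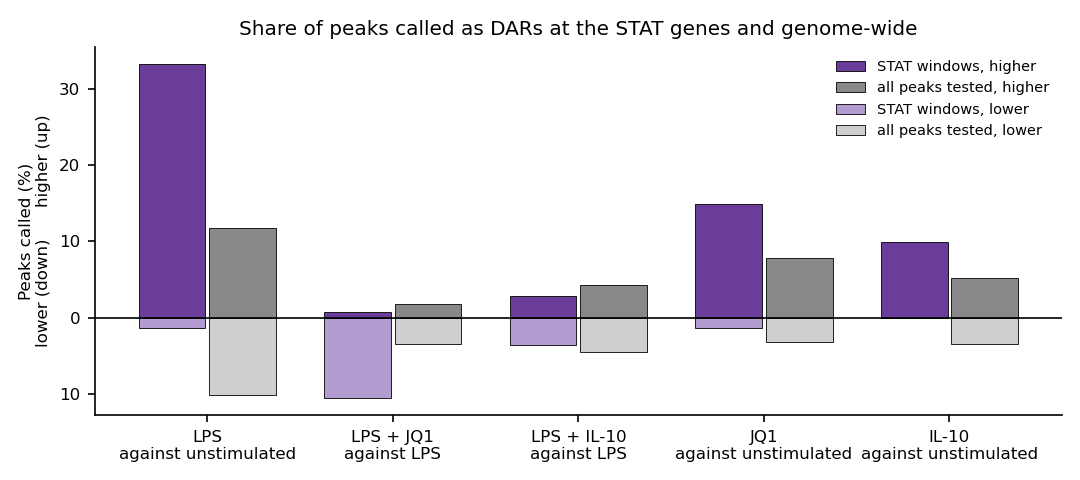
Share of peaks called as DARs (%, y axis; higher above 0, lower below 0) in 5 comparisons (x axis), for the 141 peaks of the STAT windows (purple) and all 194230 peaks tested (grey). The LPS bar of the STAT windows stands at 33.3% higher against 11.7%, and the LPS + JQ1 bar at 10.6% lower against 3.49%.

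The Stat2 window had the largest median LPS change of the 6 windows (log2 fold-change 0.64). Stat2 (chromosome 10, 127707629 to 127729905, plus strand) encodes the interferon-specific STAT. All 5 peaks in its body rose with LPS, with a median log2 fold-change of 1.41, and 11 of the 21 in the window did (52.4%, against 11.7% of all peaks). The window also takes in Il23a, which encodes the p19 subunit of IL-23, just downstream of Stat2. The 9 neighbouring peaks from the 5′ end of Stat2 past Il23a to the start of Pan2 all rose with LPS. So did 2 weaker ones within 5.7 kb upstream. None of the 7 peaks 11.4 to 24.4 kb upstream, over Timeless and Apon and between genes, was a DAR with LPS. The nearest of these 7 was, however, a DAR with IL-10 alone, higher than unstimulated. Its log2 LPS change was lower with IL-10 than without (LPS by IL-10 interaction -0.71 ± 0.21, edgeR adjusted p = 0.022).

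The 5′ peak of Stat2 (127706767 to 127711257), which contains the upstream sequence shown above, held 485, 543 and 739 normalized counts in the unstimulated libraries and 1252, 1272 and 1175 with LPS. With JQ1 before LPS it held 1109, 1323 and 1210, and with IL-10 before LPS 1028, 908 and 883. The LPS libraries lay above all unstimulated ones and overlapped those of LPS_JQ1, and all LPS_IL10 libraries lay below all LPS libraries. Its log2 fold-change with LPS was 1.06 ± 0.14 (SE, n = 3, edgeR adjusted p = 2.9e-10), and LPS_JQ1 differed from LPS by -0.02 ± 0.13 (adjusted p = 0.96). LPS_IL10 differed by -0.39 ± 0.13 (adjusted p = 0.043), which is under the size a DAR needs. JQ1 alone gave 0.64 ± 0.14 and IL-10 alone 0.56 ± 0.14, both DARs. The JQ1 call was lost in 4 and the IL-10 call in 7 alternative fits, both of them with total-count scaling or loess offsets and without replicate 2.

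Inside the gene the pattern was different. The peak over the middle of Stat2 (127711347 to 127719830), where the second sequence lies, held 200, 157 and 137 normalized counts unstimulated and 559, 533 and 526 with LPS. It held 325, 338 and 390 in LPS_JQ1 and 541, 380 and 451 in LPS_IL10. LPS_JQ1 libraries lay between the unstimulated and the LPS libraries without overlap, whereas 1 LPS_IL10 library reached the LPS range. The fold-change was 1.72 ± 0.15 with LPS (adjusted p = 1.9e-17) and -0.62 ± 0.14 for LPS_JQ1 against LPS (adjusted p = 0.0018), a call lost without replicate 2. For LPS_IL10 against LPS it was -0.24 ± 0.14 (adjusted p = 0.31).

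The strongest rise was at the 3′ end of Stat2, in a peak that reaches the 3′ side of Il23a (127727960 to 127733763). Counts were 140, 137 and 134 unstimulated and 561, 616 and 560 with LPS, then 317, 289 and 306 in LPS_JQ1 and 653, 481 and 532 in LPS_IL10. JQ1 alone (117, 134 and 126) and IL-10 alone (137, 142 and 132) were near the unstimulated level. LPS gave 2.08 ± 0.14 (adjusted p = 1.1e-23), LPS_JQ1 against LPS -0.93 ± 0.13 (adjusted p = 9.9e-08) and LPS_IL10 against LPS -0.06 ± 0.13 (adjusted p = 0.84). The 2 treatments differed directly, by -0.87 ± 0.13 (adjusted p = 4.4e-07). The 3 DARs held under every alternative fit tried.

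The peaks between and beyond these moved likewise, and were named after their values were seen unless stated. The peak at 127719840 to 127722461, named by rule, gave 1.41 ± 0.16 with LPS and fell by 0.72 with JQ1 and by 0.53 with IL-10 before LPS, the only DAR of the Stat2 window for IL-10 under LPS and one lost in 4 alternative fits, those without replicate 1 or replicate 2 among them. The next (127722494 to 127727887) gave 1.22 ± 0.16 and fell by 0.68 in LPS_JQ1. Over Il23a itself, the peak at 127733845 to 127734761 rose from 29, 49 and 14 to 142, 109 and 137 with LPS and held 75, 85 and 75 in LPS_JQ1. Its values were 2.08 ± 0.24 and -0.72 ± 0.21, the second lost without replicate 1 or without replicate 3. The peak between Il23a and Pan2 (127736218 to 127738925) gave 1.70 ± 0.19 and -0.82 ± 0.17. By contrast, the peaks at the starts of Il23a (127734906 to 127735906) and Pan2 (127739904 to 127741015) gave 1.03 ± 0.14 and 0.66 ± 0.14 with LPS (the second lost in 4 alternative fits, that without replicate 1 among them) and -0.04 ± 0.14 and 0.05 ± 0.13 for LPS_JQ1 against LPS. In the Stat2 window, LPS_JQ1 was thus lower than LPS at 6 peaks, 4 of the 5 in the gene body and 2 downstream, but not at the 5′ peak of Stat2 or the starts of Il23a and Pan2. The peak at 127719840 to 127722461, 1 of the 6, covers an annotated internal start. Over all windows, LPS_JQ1 was lower than LPS at 8 of 41 promoter-class peaks (19.5%, against 3.22% of all promoter peaks) and at 7 of 100 distal ones (7.0%, against 3.55%).

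**Figure D2:**
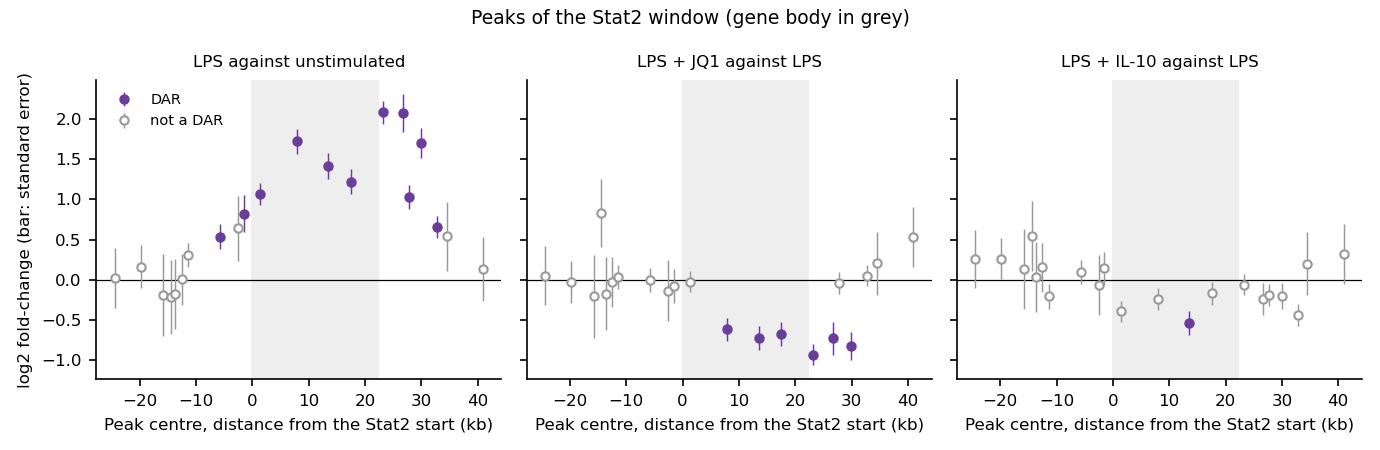
Log2 fold-change (y axis, with standard error) of the 21 peaks of the Stat2 window against the distance of the peak centre from the Stat2 start (x axis, kb; gene body in grey), for LPS against unstimulated, LPS + JQ1 against LPS and LPS + IL-10 against LPS. Filled points are DARs: 11 rise with LPS, 6 fall with JQ1 and 1 falls with IL-10.

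**Figure D3:**
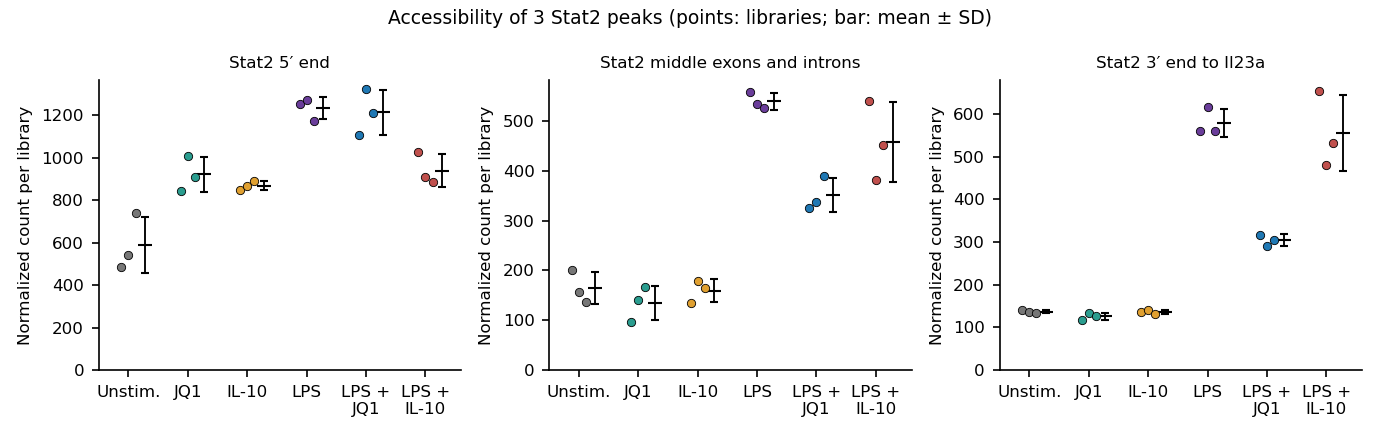
Normalized counts (y axis) of 3 Stat2 peaks in the 18 libraries by condition (x axis); points are libraries, bars the mean ± SD (n = 3). At the 5′ end the LPS + JQ1 libraries (1109 to 1323) overlap the LPS libraries (1175 to 1272), while at the 3′ end they lie apart (289 to 317 against 560 to 616).

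At Stat3 (chromosome 11, 100746412 to 100800854, minus strand), the mediator of the IL-10 signal, 16 of 44 peaks (36.4%) rose with LPS, against 11.7% of all peaks. With JQ1 alone and with IL-10 alone 4 each (9.09%) rose, against 7.85% and 5.16% of all peaks, the first near the background. Under LPS, 3 peaks (6.82%) were lower with JQ1, against 3.49%, 1 of them over the 3′ ends of both Stat3 and Stat5a. With IL-10 under LPS 2 peaks (4.55%) were higher, against 4.26%, also near the background.

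The peak of Stat3's 5′ end (100799718 to 100800815; chosen after values were seen, because the rule for promoter peaks picked another) held 309, 396 and 428 normalized counts unstimulated and 565, 523 and 494 with LPS. It held 591, 716 and 641 with JQ1 alone and 560, 544 and 517 with IL-10 alone, all above the unstimulated libraries. The changes were 0.48 ± 0.14 with LPS (adjusted p = 0.0054, under the size of a DAR), 0.78 ± 0.14 with JQ1 (adjusted p = 9.3e-06) and 0.51 ± 0.14 with IL-10 (adjusted p = 0.0075). The JQ1 call was lost in 3 alternative fits, with total-count scaling (0.50), with loess offsets (0.24) and with promoter and distal peaks fitted apart (0.49). The IL-10 call was lost in 8, those 3 (0.31, 0.13 and 0.34) and those without replicate 1 or replicate 2 among them. Under LPS neither treatment was a DAR (0.15 ± 0.13 with JQ1, adjusted p = 0.64, and -0.14 ± 0.13 with IL-10, adjusted p = 0.59).

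A run of 3 intergenic peaks lay upstream of Stat3, and 2 of them had the largest rises with IL-10 alone among the 141 peaks. The far one, centred 12.8 kb from the gene start (100813148 to 100814125), held 47, 52 and 73 normalized counts unstimulated, 193, 162 and 173 with IL-10 and 125, 149 and 122 with JQ1. With LPS it held 83, 98 and 85, in LPS_IL10 176, 163 and 193 and in LPS_JQ1 107, 103 and 118. Every IL-10 library, with or without LPS, lay above every library without IL-10. IL-10 alone gave 1.60 ± 0.18 (adjusted p = 4.2e-11), JQ1 alone 1.19 ± 0.19 (adjusted p = 9.8e-07) and LPS_IL10 against LPS 1.00 ± 0.17 (adjusted p = 3.5e-06). LPS_JQ1 was lower than LPS_IL10 by 0.70 on the log2 scale (SE 0.16, adjusted p = 0.0017), and all 4 calls held in every alternative fit. LPS alone gave 0.62 ± 0.19 (adjusted p = 0.0098), a call lost without replicate 1, without replicate 2, without the unstimulated library of replicate 1 and with total-count scaling. The middle 300 bp of this peak, the third sequence, hold 1 PU.1 core and no STAT dimer motif.

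The other two, chosen after their values were seen, were weaker. The one 9.9 kb upstream (100810081 to 100811455) held 25, 28 and 38 unstimulated and 75, 83 and 78 with IL-10, while JQ1 gave 44, 39 and 15. IL-10 alone raised it by 1.38 ± 0.25 (adjusted p = 8.5e-05) in every alternative fit, and LPS_IL10 against LPS was 0.33 ± 0.24 (adjusted p = 0.43). The one 7.8 kb upstream (100807945 to 100809357), with a STAT dimer motif at its centre in the sequence named near, held 37, 34 and 26 unstimulated and 42, 45 and 36 with IL-10. It held 53, 31 and 53 with LPS and 101, 70 and 90 in LPS_IL10. LPS_IL10 against LPS was 0.94 ± 0.24 (adjusted p = 0.0032, lost without replicate 2), and IL-10 alone gave 0.34 ± 0.27 (adjusted p = 0.46). At both, LPS_JQ1 was lower than LPS_IL10, by 0.95 and 1.11 on the log2 scale, the first lost without replicate 2.

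**Figure D4:**
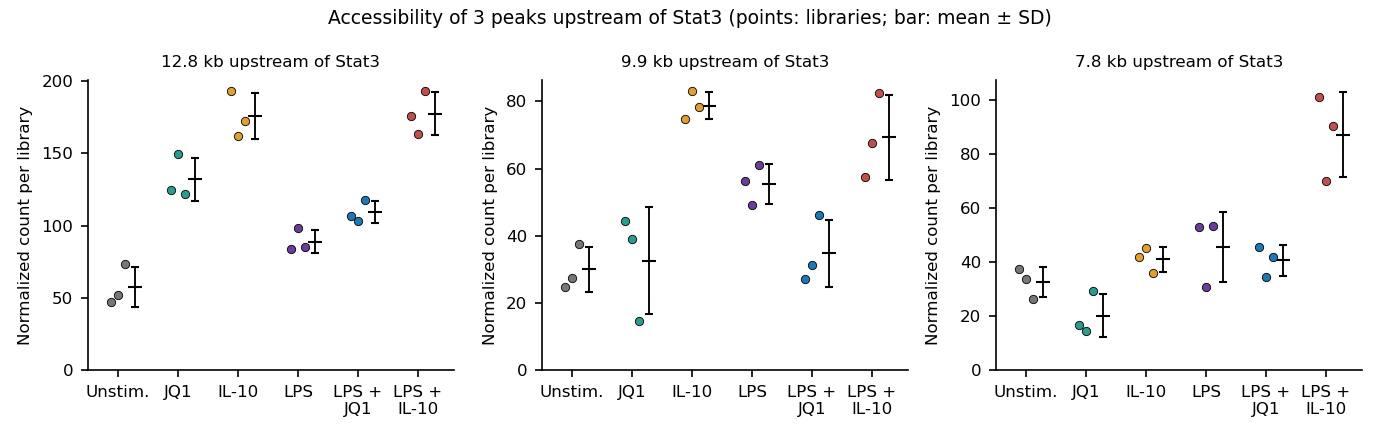
Normalized counts (y axis) of the 3 intergenic peaks 12.8, 9.9 and 7.8 kb upstream of Stat3 in the 18 libraries by condition (x axis); points are libraries, bars the mean ± SD (n = 3). At the far peak the 6 libraries with IL-10 lie at 162 to 193 and the LPS libraries at 83 to 98.

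In the body of Stat3, 9 of 28 peaks rose with LPS and 3 were lower in LPS_JQ1 than in LPS. The intron peak 6.6 kb from the start (100792676 to 100795749) rose from 91, 119 and 118 to 279, 275 and 271 with LPS (1.33 ± 0.16, adjusted p = 1.1e-11). In LPS_JQ1 it held 250, 207 and 212 and in LPS_IL10 214, 206 and 251, below every LPS library but by 0.31 and 0.30 on the log2 scale, which did not pass the test. The peak at 100764858 to 100767053, over internal transcript starts, rose from 60, 37 and 59 to 184, 153 and 172 and held 98, 83 and 109 in LPS_JQ1. Its changes were 1.72 ± 0.20 with LPS (adjusted p = 4.9e-12) and -0.80 ± 0.18 for LPS_JQ1 against LPS (adjusted p = 0.0015), and both held in every alternative fit. LPS_IL10 (159, 90 and 142) overlapped LPS.

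Stat3 and Stat5a meet at their 3′ ends, under a single peak of 100740159 to 100751985 that the rule picked as the strongest at an annotated Stat3 start. It held 424, 453 and 338 unstimulated, 924, 803 and 722 with LPS, 564, 454 and 436 in LPS_JQ1 and 772, 624 and 797 in LPS_IL10. LPS libraries were above all others except that LPS_IL10 overlapped them. LPS gave 1.01 ± 0.14 (adjusted p = 2.5e-09) and LPS_JQ1 against LPS -0.76 ± 0.14 (adjusted p = 2.6e-05). As these genes share the peak, its reads cannot be assigned to one of them.

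Stat5a and Stat5b encode near-identical STATs activated by GM-CSF, among others. At Stat5a (100720665 to 100746483, plus strand), 10 of 29 peaks rose with LPS (34.5%, against 11.7% of all peaks), 7 of them among the 11 of the gene body. The peak over its internal starts (100721105 to 100722437), the source of the sixth sequence with its kappaB match, held 375, 438 and 553 unstimulated, 789, 667 and 588 with LPS and 647, 899 and 778 with JQ1. All of those LPS and JQ1 libraries lay above the unstimulated ones. LPS gave 0.58 ± 0.14 (adjusted p = 0.00089) and JQ1 0.76 ± 0.14 (adjusted p = 2.2e-05), while the LPS call was lost in 6 alternative fits, those without replicate 1 or replicate 2 among them, and the JQ1 call in 4, that without replicate 2 among them. Under LPS neither treatment was a DAR (0.09 ± 0.14 and -0.26 ± 0.14). The neighbouring peak at 100723077 to 100724187 rose from 32, 40 and 35 to 102, 80 and 72 with LPS (1.25 ± 0.24, adjusted p = 2.7e-05). At the outermost Stat5a start (chosen after values were seen) the peak was weak, with group means of 81.2 to 131 normalized counts and a change of 0.59 ± 0.18 with LPS (adjusted p = 0.011), which was lost in 4 alternative fits, among them those without replicate 1 (0.37) and with total counts as scaling (0.37).

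At Stat5b (100642045 to 100712038, minus strand), 9 of 37 peaks rose with LPS (24.3%, against 11.7% of all peaks), 1 of them among the 14 of the gene body (7.14%). Its 5′ peak (100706817 to 100712346) held 432, 537 and 621 unstimulated and 618, 619 and 629 with LPS, a difference of 0.23 ± 0.14 (adjusted p = 0.22). JQ1 alone gave 734, 771 and 771, or 0.52 ± 0.14 (adjusted p = 0.0037), a call lost in 8 alternative fits, those without replicate 1 or replicate 2 among them, and with loess offsets the value was -0.07. An intron peak (100702006 to 100703038) rose with JQ1 from 42, 48 and 65 to 136, 122 and 87 (1.14 ± 0.21, adjusted p = 2.3e-05, in every alternative fit) and with IL-10 to 86, 90 and 71 (0.66 ± 0.21, adjusted p = 0.031, lost in 6 alternative fits, those without replicate 1 or replicate 2 among them). The strongest intron peak (100675605 to 100678764) was not a DAR in any comparison.

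Of the 8 LPS rises in the flanks of Stat5b, 5 were the peaks over Stat5a and 3 lay downstream, 2 of them over the potassium channel gene Kcnh4. The peak at 100620065 to 100621517 held 138, 133 and 169 unstimulated, 395, 331 and 357 with LPS, 213, 208 and 208 in LPS_JQ1 and 325, 277 and 313 in LPS_IL10. It rose by 1.30 ± 0.15 with LPS (adjusted p = 1.5e-12) and was lower in LPS_JQ1 than in LPS by 0.78 on the log2 scale (SE 0.14, adjusted p = 2.4e-05), both in every alternative fit. Its neighbour (100616781 to 100619494) gave 1.33 ± 0.17 and -0.74 ± 0.17, the second lost without replicate 3. For IL-10 under LPS the differences were -0.24 ± 0.14 and -0.24 ± 0.16, and neither passed the test. Beyond the 3′ end of Stat5b, 2 further peaks were lower in LPS_JQ1 than in LPS without a call for LPS itself (named after values were seen). The peak at 100635475 to 100639271 held 153, 180 and 113 with LPS and 104, 88 and 83 in LPS_JQ1 (-0.72 ± 0.18, adjusted p = 0.0042), and the weak peak at 100639546 to 100640105 held 19, 31 and 22 against 11, 6 and 9 (-1.49 ± 0.43, adjusted p = 0.021). Both calls were lost without replicate 2 and the second also without replicate 3.

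Stat4 (chromosome 1, 52043992 to 52164032, plus strand), the IL-12 STAT, had no peak at its annotated 5′ end, and the nearest lay 11.2 kb away. The peak with an internal start (52064802 to 52066185) held 74, 66 and 53 unstimulated and 110, 78 and 94 with LPS, then 36, 60 and 65 in LPS_JQ1 and 68, 47 and 55 in LPS_IL10. It was lower with either treatment under LPS, by 0.77 (SE 0.22, adjusted p = 0.016) and 0.72 (SE 0.21, adjusted p = 0.016) on the log2 scale, and the rise with LPS (0.55 ± 0.21, adjusted p = 0.048) was lost in 9 alternative fits, among them DESeq2 and those with any 1 of the 3 replicates left out. The JQ1 call was lost without replicate 1 and the IL-10 call with any 1 of the 3 replicates left out. An intron peak at 52078694 to 52079530, whose AP-1 match is in the fifth sequence, ran the other way. It held 58, 69 and 105 unstimulated, 53, 34 and 54 with LPS, 31, 54 and 51 in LPS_JQ1 and 85, 113 and 78 in LPS_IL10. LPS lowered it by 0.73 (SE 0.22, adjusted p = 0.0098), lost without replicate 2 or replicate 3. LPS_IL10 was above LPS by 0.95 ± 0.22 (adjusted p = 0.00099), lost without replicate 2, and LPS_JQ1 was below LPS_IL10 by 0.97 (SE 0.22, adjusted p = 0.0010) in every alternative fit. Near the 3′ end, the peak at 52155501 to 52157882 rose from 105, 109 and 138 to 241, 263 and 197 with LPS (0.99 ± 0.16, adjusted p = 4.9e-07).

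In the Stat4 window 10 of 20 peaks rose with LPS (50.0%, against 11.7% of all peaks), but the window reaches over the neighbouring gene downstream. Of the 10 peaks in the Stat4 body 4 rose. An intron peak of the neighbour (52185408 to 52189132) gave 1.23 ± 0.17 with LPS and its promoter peak (52176020 to 52176925) gave 0.83 ± 0.14 (0.47 with loess offsets), so the count for the window is not a count for Stat4.

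Stat6 (chromosome 10, 127080042 to 127098013, plus strand), which carries the IL-4 signal, had the smallest median LPS change, 0.10 on the log2 scale. Of its 26 peaks 5 (19.2%) were higher and 1 (3.85%) lower, against 11.7% and 10.2% of all peaks. In its body 1 of 8 peaks (12.5%) rose, near the background. The 5′ peak (127079795 to 127080928, chosen after values were seen) held 346, 361 and 472 unstimulated and 492, 441 and 428 with LPS, which overlapped (0.21 ± 0.14, adjusted p = 0.29). With JQ1 alone it held 534, 587 and 558 (0.51 ± 0.14, adjusted p = 0.0051), a call lost in 8 alternative fits, among them total-count scaling, loess offsets and those without replicate 1 or replicate 2. The peak with the strongest signal at an internal start, shared with Nab2 (127095078 to 127099622), was not a DAR in any comparison, with 0.13 ± 0.14 for LPS.

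The other Stat6 peaks named by rule were single sites. An exon peak 7.4 kb into the gene (127086927 to 127087969) held 71, 74 and 120 unstimulated, 146, 151 and 144 with JQ1 and 169, 145 and 151 with IL-10. Both treatments raised it without LPS (0.72 ± 0.18, adjusted p = 0.0020, and 0.80 ± 0.18, adjusted p = 0.0012), both calls being lost without replicate 2, the JQ1 call with total-count scaling and the IL-10 call without replicate 1. With LPS neither was a DAR (-0.06 ± 0.18 and -0.01 ± 0.18). An intergenic peak 15.5 kb upstream (127062939 to 127066147) held 129, 125 and 126 with LPS and 188, 202 and 188 in LPS_IL10 (0.60 ± 0.16, adjusted p = 0.0046, lost without replicate 2). At the promoter of the neighbouring Lrp1, a lipoprotein receptor gene (127057451 to 127058860), LPS was lower than unstimulated by 0.51 (SE 0.14, adjusted p = 0.0033) and LPS_JQ1 higher than LPS by 0.57 (SE 0.14, adjusted p = 0.0030), the only peak of the 141 raised by JQ1 under LPS. Both calls were lost without replicate 2, the LPS call also without replicate 3, in DESeq2 and with its size factors (-0.49 in both), and the JQ1 call with loess offsets (0.49).

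**Figure D5:**
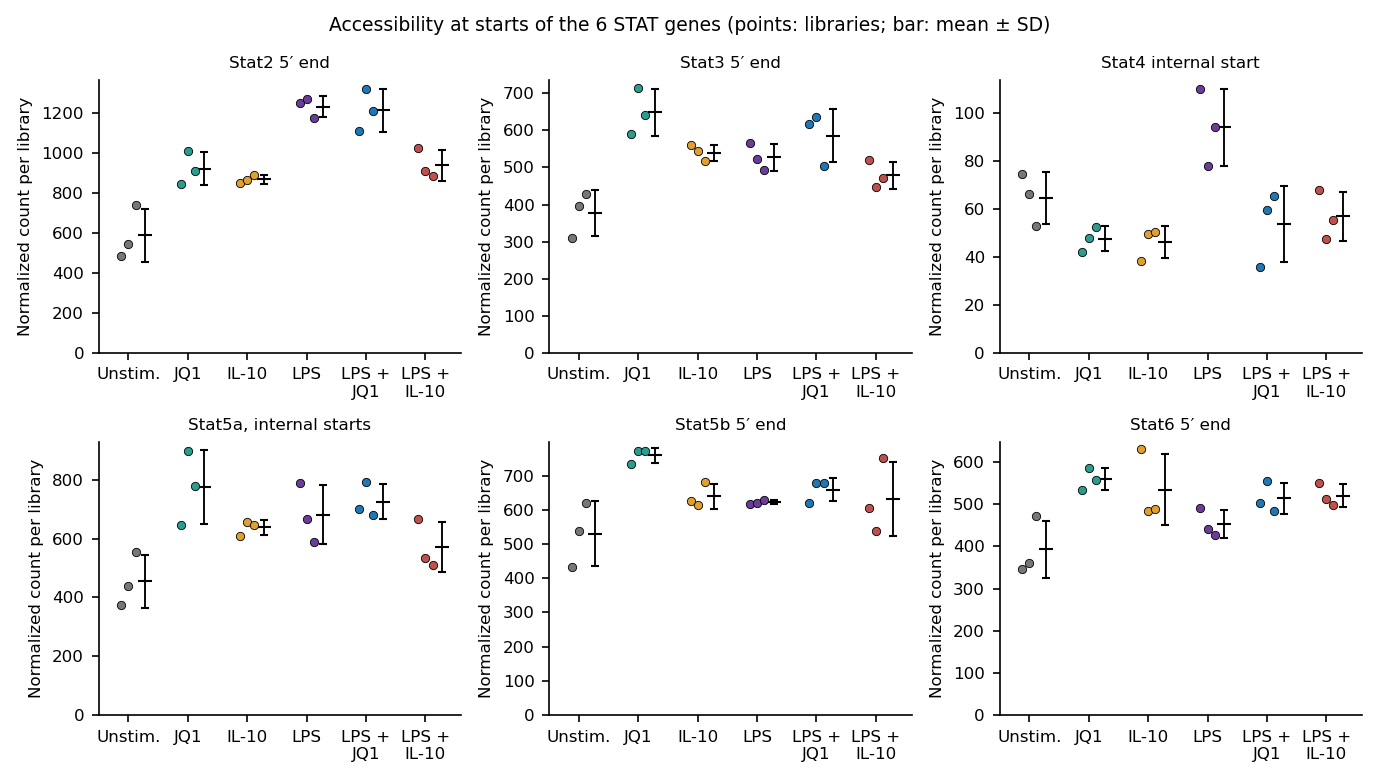
Normalized counts (y axis) of 1 peak at a start of each of the 6 STAT genes in the 18 libraries by condition (x axis); points are libraries, bars the mean ± SD (n = 3). At Stat2 the LPS libraries (1175 to 1272) lie above all unstimulated ones (485 to 739), while at Stat6 they overlap (428 to 492 and 346 to 472).

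The 5′ peaks differed in level between genes. Per kb of peak, unstimulated means were 347 ± 60.5 normalized counts (SD, n = 3) at Stat6, 344 ± 56.1 at Stat3, 131 ± 29.6 at Stat2, 95.8 ± 17.1 at Stat5b and 45.6 ± 5.14 at Stat5a, and wide peaks lower such a value. By condition, the order at Stat2 was LPS, LPS_JQ1, LPS_IL10, JQ1, IL10 and Unstimulated, and it broke without overlap after LPS_JQ1 and before Unstimulated. At Stat3 JQ1 was highest and Unstimulated lowest, and neighbours in the order overlapped except for Unstimulated. At Stat6 and at the outermost start of Stat5a all neighbours overlapped. At Stat5b only JQ1, the highest, stood apart from the next.

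The pattern of the Stat2 5′ peak over the 18 libraries was most like the promoter peaks nearest Tor3a (Pearson r = 0.98), Lims1 (0.977) and Lgals9 (0.970), and 0.73% of promoter peaks elsewhere had r over 0.9. For the Stat5a peak the leading ones included those nearest Bambi-ps1 (0.985) and Rbm25 (0.975), with 7.04% over 0.9. The Stat5a pattern was thus shared by more promoters than that of Stat2. The peaks picked by rule at the other members had smaller shares, 0.06% at Stat3, 0.04% at Stat5b, 0.01% at Stat6 and 0.0% at Stat4. For the shared 3′ peak of Stat3 and Stat5a, the nearest genes were Pgs1 (0.95), Gata2 (0.933) and Nampt (0.93). Libraries share conditions and depth, and these values are a description.

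Summed over each window, the scaled counts separated LPS from unstimulated libraries at all members but Stat6. The Stat2 window held 133, 138 and 164 CPM unstimulated and 315, 294 and 289 with LPS, a log2 ratio of 1.04. The ratios were 0.67 at Stat3, 0.67 at Stat4, 0.61 at Stat5a, 0.43 at Stat5b and 0.14 at Stat6. JQ1 alone was also above the unstimulated libraries without overlap at all 6 windows, by 0.28 at Stat3 to 0.50 at Stat2, with 0.46 at Stat6. IL-10 alone was so at 5, by 0.28 at Stat5b to 0.43 at Stat3, and at Stat4 it overlapped (0.17). The windows on chromosome 11 share peaks, so these are not 6 separate observations. No windows of other genes were summed for comparison. Of all single peaks tested, 7.85% were called higher with JQ1 alone and 5.16% with IL-10 alone, a different measure from a window sum. With total counts as scaling, the LPS ratios were 0.82 at Stat2, 0.21 at Stat5b and -0.08 at Stat6. Those of JQ1 ran from -0.0073 at Stat3 to 0.21 at Stat2 and those of IL-10 from -0.03 at Stat4 to 0.22 at Stat3. Two-sided exact permutation tests of 3 against 3 libraries cannot go below p = 0.1, which 20 of 36 tests reached (smallest Benjamini-Hochberg value 0.18), so none could pass 0.05.

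The effect of LPS differed with treatment at some peaks, and at each such DAR the log2 LPS change was lower with treatment than without. A lower change can be a smaller rise or a fall. For the LPS by JQ1 interaction, 14 of 141 peaks were lower (9.93%, against 3.19% of all peaks) and for LPS by IL-10 15 were (10.6%, against 5.90%). No peak was higher in either (edgeR and DESeq2 both gave 0, with 0 and 4 at an unadjusted p under 0.05), where 0.649% and 2.01% of all peaks were. Promoters made up 10 and 9 of these, 24.4% and 22.0% of the 41 promoter-class peaks, against 11.2% and 16.9% of all promoter peaks. With loess offsets the counts were 1 lower and 1 higher for JQ1 and 2 and 2 for IL-10, and with total counts 4 and 0 for JQ1 and 7 and 3 for IL-10. Without replicate 2 there was 1 lower peak in each, without replicate 1 there were 1 and 8, and without the unstimulated library of replicate 1 alone there were 6 for JQ1. At the 3′ peak of Stat2 the interaction with JQ1 was -0.81 ± 0.21 (adjusted p = 0.015), lost without replicate 2, with total counts (-0.53) and with loess offsets (-0.56).

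The rest of the pathway gives a setting for these values. A list of 40 JAK-STAT genes held 910 peaks within 25 kb of the gene bodies, none of them in the STAT windows. With LPS, 179 (19.7%) were higher and 65 (7.14%) lower, against 11.7% and 10.2% of all peaks. Among the 4 JAK kinases, 21 of 33 peaks at Jak2 and 10 of 25 at Tyk2 rose and none fell. At Jak1 3 of 47 rose and 4 fell, and at Jak3 none of 24 rose and 3 fell. Under LPS 15 of the Jak2 peaks were lower with JQ1 and 14 with IL-10, against 3.49% and 4.51% of all peaks. At Irf9, the DNA-binding partner of STAT2, 10 of 17 peaks rose with LPS, 4 were lower in LPS_JQ1 and 1 in LPS_IL10.

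Several receptor genes, and among the inhibitors Socs3 and Ptpn1, held many peaks that were higher with IL-10. Of 375 receptor peaks 80 (21.3%) were higher and 11 (2.93%) lower in LPS_IL10 than in LPS, against 4.26% and 4.51% of all peaks. The highest counts were 16 of 30 at Csf3r, 13 of 24 at Il21r and 13 of 37 at Ifnar2. Next came 12 of 24 at Il4ra and 12 of 28 at Ifnar1. By contrast, Il10ra, Il6st, Il13ra1, Il12rb1, Il2rg, Il3ra and Il27ra had none higher and Il2rg had 6 of 12 lower. Some receptor windows share peaks, so the same peak can count at several of these genes. The counts by gene add up to more than the 80 distinct peaks and are not separate observations. At Il10ra, the ligand-binding chain of the IL-10 receptor, 8 of 23 peaks rose with LPS, against 11.7% of all peaks. Under LPS, 4 were lower with each treatment, against 3.49% of all peaks with JQ1 and 4.51% with IL-10. Of 389 inhibitor peaks 81 (20.8%) rose and 21 (5.40%) fell with LPS, against 11.7% and 10.2% of all peaks. In LPS_IL10, 26 (6.68%) were higher and 19 (4.88%) lower than in LPS, against 4.26% and 4.51% of all peaks. Socs3, the feedback inhibitor induced by STAT3, had 18 of 28 peaks higher with LPS, 16 higher with IL-10 alone and 13 higher in LPS_IL10 than in LPS. Ptpn1 had 11 of 23 peaks higher in LPS_IL10 than in LPS and 10 higher with IL-10 alone. Of all peaks, 11.7% were higher with LPS, 5.16% with IL-10 alone and 4.26% in LPS_IL10 against LPS. Socs6 and Pias1 had 1 each higher in LPS_IL10 than in LPS, and the other inhibitors had none. The difference in shares between these lists and the STAT windows was not tested.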

How the data were processed

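ATAC-seq was performed on 18 libraries of Il10-/- BMDMs, 3 in each of 6 conditions. As deposited, the table holds raw counts of reads per peak of 1 union peak set, made by the authors with PEPATAC, Bowtie2, MACS2 and ChIPseeker on mm9; the counting tool is not given in the sources used here, nor whether peak starts count from 0 or 1. The table was checked to equal the authors' separate promoter and distal tables. Another 6 columns matched no sample and were not used.

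Counts were fitted for all peaks together with edgeR 4.0.16 in R 4.3.3 (TMM, filterByExpr, quasi-likelihood F test, all 6 groups in 1 fit), and p-values were adjusted by Benjamini-Hochberg over 194230 tested peaks; 54 of 194284 did not pass the filter. The edgeR fit was tested on simulated counts for LPS against unstimulated only, with as many peaks raised as lowered. That simulation does not bear on the choice of scaling. Every adjusted p comes from the edgeR fit of the real counts described here, unless an alternative is named. Normalized counts are counts divided by the TMM effective library size and multiplied by the geometric mean of these sizes (18544123), and ± after a log2 fold-change is its standard error. Total counts ran from 12020526 to 25908198 per library, which limits what can be seen at weak peaks.

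The 25 kb windows used GENCODE M1. Named by rule were, for each gene, the peak with most signal at an annotated start and the strongest other peak in the body, the DARs of largest change, and the peaks with the smallest adjusted p for the interactions. Because annotated starts include internal ones, the rule did not pick the 5′ end of Stat3, Stat5a or Stat6, and peaks outside it are said to be chosen after their values were seen. The members and lists were chosen with earlier results of these data known. Alternatives were DESeq2 1.42.0, its size factors, total-count and loess scaling, other filters and thresholds, a replicate block, a lane covariate, each replicate left out, and 2 added after seeing the data (promoter and distal peaks fitted apart, and the unstimulated library of replicate 1 left out). By the study's methods the cells came from 3 mice, but the labels do not say that a replicate number marks a mouse. Replicate 1 was sequenced in 1 lane and replicate 3 in another, while replicate 2 was split by LPS. A neighbouring gene is not named here, and a marker and a promoter are not reported here.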

Additional observations from a re-analysis of the deposited data

Results flagged for a closer look

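The effect of LPS differed between treated and untreated cells at 14 and 15 peaks by the JQ1 and IL-10 interaction terms of edgeR. The 6 with the smallest adjusted p for each treatment are given here (8 peaks in all) with the interaction log2 value. It is negative where the log2 LPS change was lower with the treatment than without it, either a smaller rise or a fall. For JQ1 the values were -0.89 at the Il23a start (127734906 to 127735906), -0.83 at the Pan2 start (127739904 to 127741015), -0.82 at the Tmem194 promoter (127113208 to 127113932), -0.79 at the promoter of the gene downstream of Stat4 (52176020 to 52176925), -0.83 at a Kcnh4 peak (100620065 to 100621517) and -0.81 at the 3′ end of Stat2 (127727960 to 127733763). For IL-10 they were -1.21 at the Tmem194 promoter, -0.99 at the Pan2 start, -0.95 at the 5′ peak of Stat2 (127706767 to 127711257), -0.88 at the promoter downstream of Stat4, -0.88 at a second Tmem194 peak (127111786 to 127112613) and -0.85 at the Il23a start.

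At the gene starts and the second Tmem194 peak, treatment alone was itself a DAR above the unstimulated level, except for IL-10 at the promoter downstream of Stat4 (0.37, adjusted p = 0.07 in edgeR). The Tmem194 promoter held 169, 163 and 224 normalized counts unstimulated, 342, 355 and 309 with JQ1 and 300, 305 and 281 with IL-10. It held 318, 342 and 338 with LPS, 343, 365 and 314 in LPS_JQ1 and 221, 245 and 222 in LPS_IL10. Every LPS_IL10 library there lay below every library with IL-10 alone. At the 3′ end of Stat2 and at Kcnh4, treatment alone stayed near the unstimulated level and LPS_JQ1 was below LPS. The unstimulated libraries enter every one of these terms and had TMM factors of 1.04 to 1.24, against 0.896 to 1.05 in the others. Of the 12 terms, only that of IL-10 at the Tmem194 promoter passed in every alternative fit.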

How the results depend on the processing

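Of 114 calls at named peaks, 35 passed under every alternative fit, among them the LPS rises in the Stat2 body and the IL-10 rise 12.8 kb upstream of Stat3. By setting, 114 of 114 were kept without the filter, 112 with the replicate block, the lane covariate or DESeq2's size factors, 109 of 113 with DESeq2, 104 of 113 with at least 10 counts in every library, 103 with only the groups compared, 91 without the unstimulated library of replicate 1, 87 with promoter and distal peaks fitted apart, 73 with total counts and 66 with loess offsets, and 75, 49 and 95 without replicates 1, 2 and 3. Replicate numbers are not stated to pair libraries. Deviations from group means correlated with a mean r of 0.0057 over 45 same-numbered pairs and -0.0029 over 90 others, and 9 of 18 libraries matched best, in another group, a library of their own number. The replicate block left all 16 counts within 1.5 times (45 higher for LPS against 47) and changed 2 calls: the LPS by JQ1 term at the Stat3 5′ peak (-0.63, adjusted p = 0.057) and LPS_JQ1 against LPS_IL10 at 127722494 to 127727887 (-0.50). With loess offsets the JQ1 effect all but vanished at the 5′ peaks of Stat2 (-0.0599), Stat5b (-0.0722) and Stat6 (-0.0018), leaving small negative values. The cause was not tested. With total counts, 15 of 36 window totals moved by more than the spread between libraries.

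Counts are given as higher and lower, with those of the report in parentheses. With total counts they were 25 and 5 for LPS (47 and 2), 6 and 2 for LPS_IL10 against LPS (4 and 5), 6 and 15 for JQ1 (21 and 2), 3 and 3 for IL-10 (14 and 0), 0 and 21 for LPS_JQ1 against LPS_IL10 (2 and 16), 0 and 4 for LPS by JQ1 (0 and 14) and 3 and 7 for LPS by IL-10 (0 and 15). With loess offsets they were 0 and 14 for LPS_JQ1 against LPS (1 and 15), 7 and 5 for LPS_IL10 against LPS, 4 and 5 for JQ1, 4 and 1 for IL-10, 1 and 16 for LPS_JQ1 against LPS_IL10, 1 and 1 for LPS by JQ1 and 2 and 2 for LPS by IL-10. Fitting promoter and distal peaks apart gave 7 and 3 for LPS_IL10 against LPS, 14 and 12 for JQ1, 10 and 1 for IL-10, 0 and 19 for LPS_JQ1 against LPS_IL10 and 1 and 11 for LPS by IL-10. At least 10 counts in every library gave 7 and 1 for IL-10, and 1 higher for LPS_JQ1 against LPS_IL10 and for LPS by IL-10. At an adjusted p under 0.01 there were 3 lower for LPS_IL10 against LPS, 10 for LPS_JQ1 against LPS_IL10, 3 for LPS by JQ1 and 8 for LPS by IL-10. DESeq2 gave 1 lower for LPS and 3 for LPS_IL10 against LPS, its size factors 1 lower for LPS, and only the groups compared 7 lower for LPS by JQ1. Without the unstimulated library of replicate 1 there were 2 higher for LPS_JQ1 against LPS, 6 for IL-10 and 6 lower for LPS by JQ1.

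With 10 kb windows, which hold fewer peaks, there was 1 lower for LPS, 0 higher for LPS_JQ1 against LPS, 2 and 3 for LPS_IL10 against LPS, 1 lower for JQ1, 0 higher for LPS_JQ1 against LPS_IL10 and 9 lower for LPS by JQ1. In gene bodies there were 26 and 1 for LPS, 0 and 8 for LPS_JQ1 against LPS, 1 and 3 for LPS_IL10 against LPS, 11 and 1 for JQ1, 6 higher for IL-10, 0 and 7 for LPS_JQ1 against LPS_IL10, 4 lower for LPS by JQ1 and 6 for LPS by IL-10. Leaving out each replicate gave 29 to 45 higher and 0 to 2 lower for LPS, 0 to 1 and 10 to 13 for LPS_JQ1 against LPS, 1 to 6 and 0 to 3 for LPS_IL10 against LPS, 7 to 23 and 2 to 4 for JQ1, 2 to 22 higher for IL-10, 0 to 3 and 6 to 12 for LPS_JQ1 against LPS_IL10, 1 to 18 lower for LPS by JQ1 and 1 to 17 for LPS by IL-10.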

Other observations

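Of 10 peaks in the body of Stat4, the 1 that fell with LPS (52078694 to 52079530) was also the 1 that was higher with IL-10 under LPS, while 2 others of the body were lower with IL-10 under LPS. At Stat6 the JQ1 rises were spread over 7 of 26 peaks (26.9%, against 7.85% of all peaks). The LPS rises there were spread over 5 (19.2%, against 11.7%). These counts compare peaks of 1 locus and carry no test. Of the 26 Stat6 peaks, 9 were promoter-class, and 22.9% of all promoter peaks were higher with JQ1 alone. As given above, calls for JQ1 alone turned on the scaling.

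ATAC-seq counts give accessibility and not expression, and a window peak is not shown to act on the STAT gene. There were 3 libraries per group, 1 dose and 1 time. The 3 genes on chromosome 11 share peaks. The edgeR p-values rest on a spread pooled over the 6 groups and drawn largely from the other peaks (92.9 prior degrees of freedom). Libraries were not paired in that fit. By the study's methods the cultures came from 3 mice.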
